A study of Oryza sativa Indica Group with 18 samples.

Results

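The genes described here encode JAZ proteins, the repressors of jasmonate signalling, in heated seedlings of 2 indica rice cultivars, Annapurna and IR64. They were found by name: every gene with the symbol or synonym JAZ9, JAZ10, JAZ11, JAZ12 or JAZ13, which gave 6 genes with 7 probe sets among the 17905 genes that a probe set measured alone. JAZ9 to JAZ13 are the 5 genes of the TIFY11 group (TIFY11A to TIFY11E in that order). The 6th gene, JAZ8 (TIFY10C), entered because JAZ9 is among its synonyms, and it is described apart from the others. JAZ10 is measured by 2 probe sets and each of the other genes by 1.

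The study measured RNA from whole 7-day-old seedlings grown in hydroponic medium, on 18 Affymetrix rice arrays with 3 labelled biological replicates in each of 6 groups. In each cultivar, control seedlings stood at 28 °C for 3 h, a 37 °C group had 1 h at 37 °C, and a 42 °C group had 1 h at 37 °C followed by 2 h at 42 °C. The labels name no transgene, mutation or hormone treatment for any group, and the series title sets a tolerant against a susceptible cultivar without saying which is which. Because controls were harvested 3 h into the experiment and the 37 °C seedlings 1 h into it, warmth and elapsed time cannot be told apart at 37 °C, nor between 37 °C and 42 °C. In whole seedlings, fewer cells of a type and less RNA per cell cannot be told apart either.

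Jasmonate is the lipid-derived hormone of wounding and defence in plants. JAZ proteins bind and silence its transcription factors, through the adaptor NINJA and co-repressors of the TOPLESS family, until jasmonoyl-isoleucine brings the JAZ protein to the F-box receptor COI1 and the JAZ protein is degraded. JAZ genes are themselves among the transcripts that jasmonate induces, so that the repressors are made again once the pathway is active. In rice, JAZ9 is known for a role in salt tolerance and JAZ8 for one in resistance to bacterial blight.

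Values are intensities per probe set, and probe sets are not compared with each other in level. Differences are given on the scale of log2(intensity + 16) ± SE from 1 limma fit over all 18 arrays and 57258 probe sets (n = 3 arrays per group). The words rose, fell, higher and lower stand for a Benjamini-Hochberg adjusted p under 0.05 together with at least 2-fold, or 1 on the log2 scale. The p-values measure the spread between arrays labelled as biological replicates, and an exact permutation test of 3 arrays against 3 cannot go below 0.1.

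On all arrays, 34.2 to 35.3% of probe sets were above an intensity of 50. Every array had far more actin signal at the 3′ than at the 5′ end, with a log2 ratio of 5.17 or more. Annapurna control replicate 1 stood apart in RNA quality, with an actin 3′ over 5′ log2 ratio of 6.53 against 5.17 to 5.88 on the other arrays and an 18S rRNA signal of 11.9 against 63.6 to 451. IR64 control replicate 3 stood apart in AMY1.1, an amylase gene of the germinating grain, at 3532 against 37.9 and 41.6 on the other IR64 control arrays. Annapurna control replicate 3 had AMY1.1 at 124 against 5.49 and 5.48. On the replicate 3 controls LSI1 was at 877 against 1416 and 1284 in Annapurna and at 658 against 1032 and 1034 in IR64. IR64 control replicate 3 also had the highest control values of JAZ9 to JAZ13, with JAZ10 taken by its brighter probe set. The summed level of 9 grain marker genes was 1167 to 1443, 2014 to 2172 and 3230 to 3600 in Annapurna at 28, 37 and 42 °C, and 754 to 4322, 2103 to 2238 and 11998 to 13589 in IR64. AMY1.1 (8767 to 10078) and GLB1, a seed globulin gene (2663 to 3025), made up most of the IR64 sum at 42 °C, while AMY1.2, AMY1.4, GLUA1 and PROLAMIN were at 12.9 or below on every array. The summed level of 5 root marker genes was 6514 to 7274 at 42 °C against 1984 to 2703 in control in Annapurna, and 8430 to 9379 against 1282 to 2023 in IR64. LSI1, a silicon transporter gene, carried this difference, with 5385 to 6161 against 877 to 1416 in Annapurna and 7245 to 8112 against 658 to 1034 in IR64. SCR1 was at 56.8 to 65.7 against 66.2 to 104 in Annapurna and 50.6 to 59.6 against 67.9 to 84.6 in IR64. At 37 °C the root sum was 1670 to 1765 in Annapurna and 1414 to 1454 in IR64, with LSI1 at 1349 to 1482 and 1169 to 1206. LSI2 at 37 °C had 145 to 172 against 859 to 1205 in control in Annapurna and 81.4 to 97.3 against 431 to 784 in IR64. SCR1 at 37 °C had 24.3 to 29.8 in Annapurna and 42.8 to 48.0 in IR64. The summed level of 5 leaf marker genes was 87840 to 91749 against 90638 to 95341 in Annapurna, and 81306 to 83223 against 69175 to 73582 in IR64. That sum is mostly CAB2R and RBCS and hides opposite differences. PORA had 13097 to 15026 against 2498 to 2735 in Annapurna and 11154 to 11519 against 1511 to 1712 in IR64. Both FBPASE genes were below control. The brighter had 1389 to 1475 against 8643 to 8985 in Annapurna and 550 to 655 against 4697 to 5798 in IR64. The other had 1325 to 1458 against 4639 to 5228 in Annapurna and 597 to 610 against 2864 to 3090 in IR64. At 37 °C PORA and both FBPASE genes lay between their control and 42 °C levels in each cultivar. CCA1, a morning gene of the circadian clock, differed from control by -0.95 and -0.51 at 37 °C and by -4.63 and -3.40 at 42 °C in Annapurna and IR64. The part of these markers in the JAZ values was not tested.

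None of the 6 genes was called between Annapurna and IR64 in control, with differences of -0.61 to -0.13, where 6.17% of all genes were called. Without the fold threshold, limma's unadjusted p was under 0.05 for 4 of them, all with a negative difference. At 42 °C, JAZ9, JAZ10, JAZ11, JAZ12 and JAZ13 all fell in IR64, with log2 differences of -4.45 to -3.44. In Annapurna at 42 °C, 4 of these 5 genes fell by 1.79 (JAZ10) or more, and JAZ13 fell by 4.04, while JAZ12 stayed short of the threshold. JAZ8 fell in no group.

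**Figure D1:**
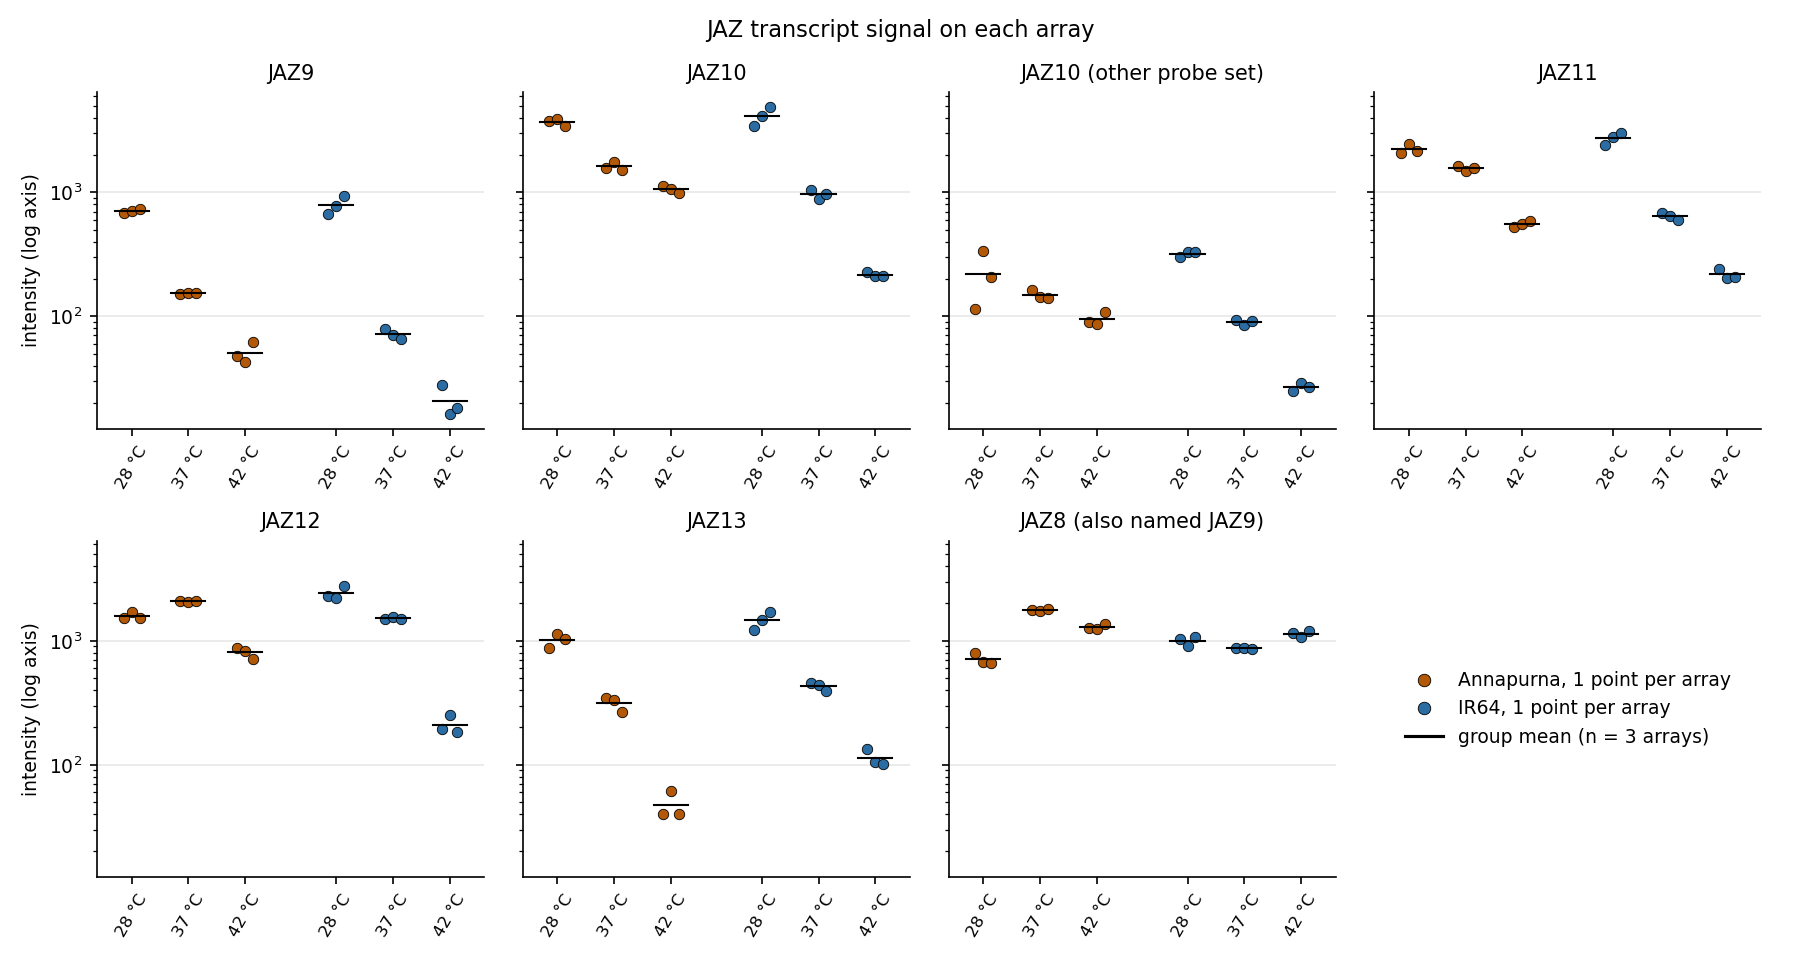
Intensity of each JAZ probe set on each array (log axis), with Annapurna in brown and IR64 in blue at 28 °C (control), 37 °C and 42 °C; points are arrays and bars are means of 3 arrays. JAZ9, JAZ10, JAZ11 and JAZ13 step down with each temperature in both cultivars, JAZ12 at 42 °C lies below control in both cultivars, and JAZ8 at 42 °C does not.

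JAZ9, JAZ11 and JAZ10 stand next to each other in the rice gene table, with 0 annotated genes between them. JAZ9 had 687, 713 and 739 in Annapurna control, 150, 153 and 155 at 37 °C, and 48.0, 42.6 and 62.4 at 42 °C. In IR64, JAZ9 had 669, 776 and 926 in control, 78.3, 70.5 and 65.6 at 37 °C, and 27.8, 16.4 and 18.3 at 42 °C. The control arrays of the cultivars overlapped, and no other pair of groups did: every heated array was below every control array, with IR64 below Annapurna at 37 °C and at 42 °C. JAZ9 fell by 2.11 ± 0.131 at 37 °C in Annapurna (4.33-fold, limma adjusted p = 9.7e-09) and fell by 3.195 ± 0.131 in IR64 (9.16-fold, limma adjusted p = 1.4e-10). At 42 °C it fell by 3.45 ± 0.131 in Annapurna (11-fold, limma adjusted p = 6.7e-11) and fell by 4.45 ± 0.131 in IR64 (21.9-fold, limma adjusted p = 3.6e-12), which was the 8th lowest difference of all 17905 genes in IR64. With signals this low at 42 °C the size depends on the pseudocount: the IR64 difference was -5.20 with a pseudocount of 1 and -3.32 with 64.

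JAZ11 had 2091, 2450 and 2168 in Annapurna control, 1623, 1495 and 1570 at 37 °C, and 528, 553 and 583 at 42 °C. In IR64 it had 2395, 2820 and 3030 in control, 681, 644 and 596 at 37 °C, and 242, 205 and 208 at 42 °C. JAZ11 was thus near its control level in Annapurna at 37 °C, where no array overlapped control but the difference was -0.51 ± 0.088 and was not called. In IR64 at 37 °C it fell by 2.07 ± 0.088 (4.2-fold, limma adjusted p = 2.1e-10), close to its difference in Annapurna at 42 °C. At 42 °C JAZ11 fell by 1.98 ± 0.088 in Annapurna (3.94-fold, limma adjusted p = 3.7e-10) and fell by 3.56 ± 0.088 in IR64 (11.8-fold, limma adjusted p = 5.7e-13). In order of level, the control groups came first and overlapped, followed without overlap by Annapurna at 37 °C, IR64 at 37 °C, Annapurna at 42 °C and IR64 at 42 °C.

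JAZ10, by its brighter probe set, had 3789, 3890 and 3417 in Annapurna control, 1571, 1771 and 1517 at 37 °C, and 1126, 1064 and 989 at 42 °C. In IR64 it had 3408, 4113 and 4850 in control, 1052, 889 and 967 at 37 °C, and 227, 213 and 210 at 42 °C. IR64 at 37 °C overlapped Annapurna at 42 °C, the control groups overlapped each other, and the other groups stood apart. JAZ10 fell by 1.18 ± 0.106 in Annapurna (2.27-fold, limma adjusted p = 5.3e-07) and fell by 2.06 ± 0.106 in IR64 (4.17-fold, limma adjusted p = 1.7e-09) at 37 °C. At 42 °C it fell by 1.79 ± 0.106 in Annapurna (3.45-fold, limma adjusted p = 7.5e-09) and fell by 4.14 ± 0.106 in IR64 (17.6-fold, limma adjusted p = 8.7e-13), the 14th lowest difference of all genes in IR64.

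The dimmer JAZ10 probe set gave the same directions against control with smaller differences. It had 114, 338 and 208 in Annapurna control, 164, 142 and 140 at 37 °C and 90.3, 87.4 and 109 at 42 °C, and in IR64 it had 298, 327 and 329 in control, 93.5, 84.8 and 90.9 at 37 °C and 24.8, 29.1 and 27.0 at 42 °C. The low control value of 114 belonged to Annapurna control replicate 1, the array that stood apart in RNA quality, and it lay below every Annapurna array at 37 °C. In IR64 this probe set fell by 1.66 ± 0.238 at 37 °C and fell by 2.96 ± 0.238 at 42 °C. In Annapurna it was not called, at -0.40 ± 0.238 for 37 °C and -0.97 ± 0.238 for 42 °C. Without Annapurna control replicate 1 it differed by -0.78 at 37 °C, still not called, and fell by 1.34 at 42 °C. The brighter probe set is of a kind that may match more than 1 transcript, and cross-hybridisation between these similar genes was not tested.

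JAZ13 and JAZ12 lie near each other too, with 3 annotated genes between them in the gene table. JAZ13 had 877, 1141 and 1030 in Annapurna control, 348, 335 and 267 at 37 °C, and 40.3, 61.2 and 40.0 at 42 °C. In IR64 it had 1232, 1461 and 1705 in control, 458, 444 and 396 at 37 °C, and 134, 106 and 102 at 42 °C. No groups overlapped, and Annapurna was below IR64 at every temperature, the reverse of JAZ9, JAZ10 and JAZ11 in heated seedlings. At 37 °C JAZ13 fell by 1.63 ± 0.156 in Annapurna (3.1-fold, limma adjusted p = 1.0e-06) and fell by 1.71 ± 0.156 in IR64 (3.28-fold, limma adjusted p = 6.6e-07). At 42 °C it fell by 4.04 ± 0.156 in Annapurna (16.4-fold, limma adjusted p = 8.1e-11), the 16th lowest difference of all genes in that cultivar, and fell by 3.50 ± 0.156 in IR64 (11.4-fold, limma adjusted p = 2.7e-10).

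JAZ12 had 1517, 1719 and 1515 in Annapurna control, 2087, 2067 and 2079 at 37 °C, and 882, 824 and 718 at 42 °C. In IR64 it had 2300, 2202 and 2784 in control, 1497, 1569 and 1509 at 37 °C, and 194, 250 and 184 at 42 °C. All Annapurna arrays at 37 °C were above the Annapurna controls while all IR64 arrays at 37 °C were below the IR64 controls, but neither difference was called (0.39 ± 0.107 in Annapurna and -0.66 ± 0.107 in IR64). At 42 °C JAZ12 fell by 3.44 ± 0.107 in IR64 (10.9-fold, limma adjusted p = 6.8e-12). In Annapurna at 42 °C it stood just short of 2-fold, at -0.96 ± 0.107 (limma adjusted p = 5.7e-06), and without Annapurna 42 °C replicate 1 it was called at -1.02.

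JAZ8, of the TIFY10 group, had 795, 671 and 668 in Annapurna control, 1769, 1736 and 1802 at 37 °C, and 1273, 1254 and 1372 at 42 °C. In IR64 it had 1033, 906 and 1067 in control, 871, 871 and 866 at 37 °C, and 1148, 1067 and 1193 at 42 °C. It was the 1 gene of the 6 that rose in any comparison with control: by 1.2998 ± 0.0695 in Annapurna at 37 °C (2.46-fold, limma adjusted p = 2.0e-09). The Annapurna difference at 42 °C was 0.86 ± 0.0695 and not called, and in IR64 the differences were -0.20 ± 0.0695 at 37 °C and 0.18 ± 0.0695 at 42 °C, neither called. Its order of levels ran from Annapurna at 37 °C through Annapurna at 42 °C, IR64 at 42 °C, IR64 control and IR64 at 37 °C to Annapurna control, and only IR64 at 42 °C and IR64 control overlapped.

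**Figure D2:**
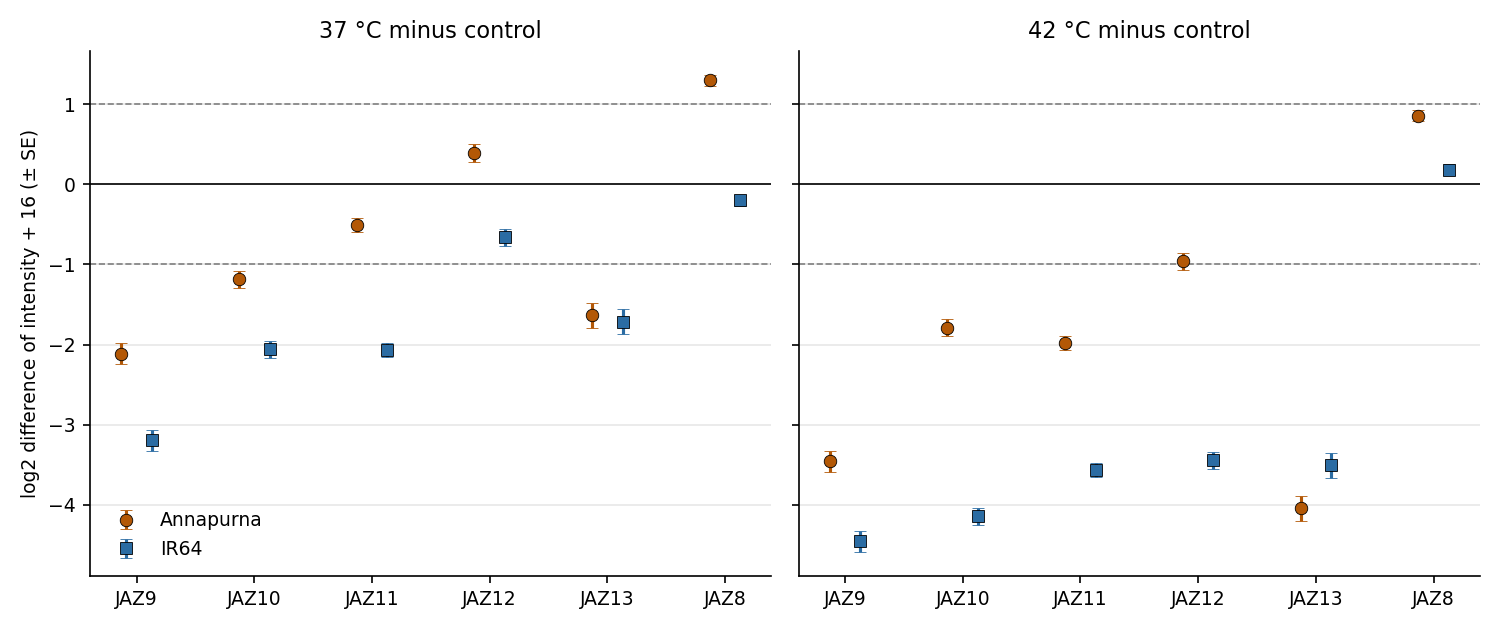
Log2 difference of intensity + 16 between heated and control arrays of the same cultivar, at 37 °C (left) and 42 °C (right), for each JAZ gene; circles are Annapurna, squares IR64, bars ± SE (n = 3 arrays per group), and dashed lines mark 2-fold. At 42 °C the IR64 values of JAZ9 to JAZ13 lie between -4.45 and -3.44 while the Annapurna values spread from -4.04 to -0.96, and JAZ8 lies above 0 in both.

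Counted together, 4 of the 6 genes were called at 37 °C in Annapurna, 3 lower (JAZ9, JAZ10 and JAZ13) and 1 higher (JAZ8), where 4.75% of all genes were called lower and 5.56% higher. In IR64 at 37 °C, 4 fell (JAZ9, JAZ10, JAZ11 and JAZ13), where 4.07% of all genes were called lower and 5.15% higher. At 42 °C, 4 fell in Annapurna (JAZ9, JAZ10, JAZ11 and JAZ13), where 5.5% of all genes were called lower and 3.4% higher, and 5 fell in IR64, where the shares were 5.1% and 6.45%. The median difference of the 6 genes was -0.85 and -1.89 at 37 °C and -1.88 and -3.53 at 42 °C in Annapurna and IR64, beside a median of all genes between -0.014 and 0.014. The 37 °C and 42 °C comparisons of a cultivar share their control arrays and are not independent of each other. The genes were chosen with earlier results of these data known, so the counts beside the shares of all genes are a description and not a test. The planned name rule would add JAZ1, JAZ3 and JAZ5 and give 9 genes. Of these additions only JAZ5 was called against control, lower in IR64 at 42 °C. The share called is therefore smaller among the 9 genes. JAZ10 in Annapurna at 37 °C was not called on its dimmer probe set or on the mean of both (-0.79). At 42 °C in Annapurna the dimmer JAZ10 probe set was not called either (-0.97).

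**Figure D3:**
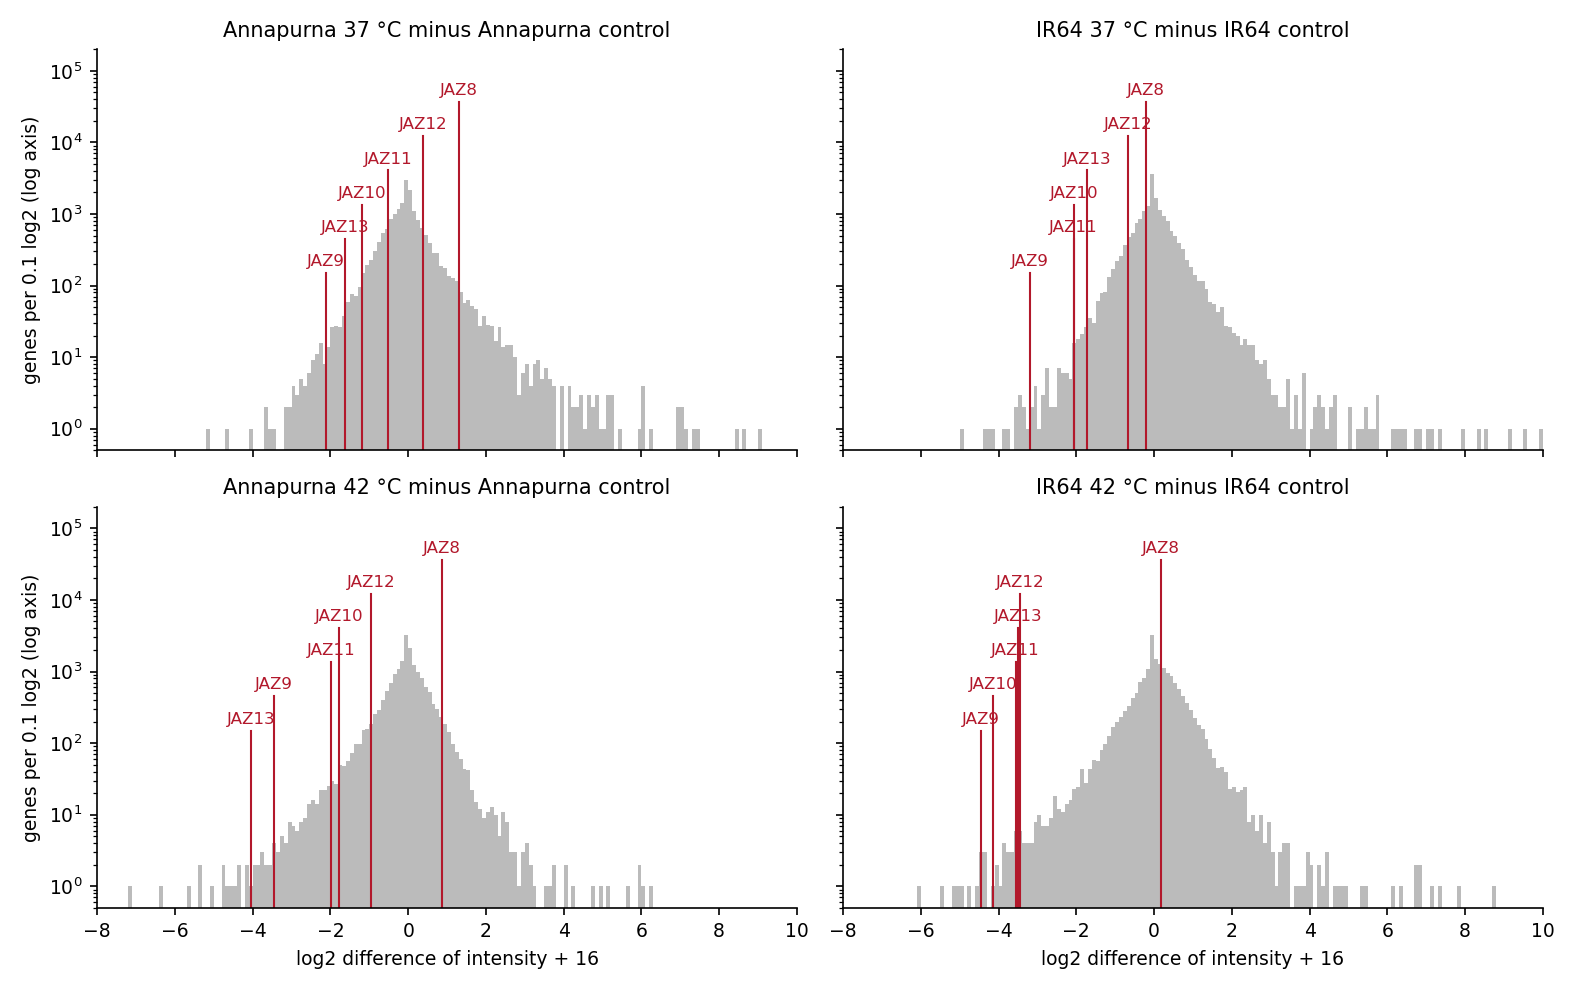
Number of genes per 0.1 log2 (log axis) by log2 difference of intensity + 16 between heated and control arrays, for 17905 genes in each cultivar at 37 °C (above) and 42 °C (below), with red lines at the JAZ genes; the height of a line has no meaning. In IR64 at 42 °C, 5 lines stand together in the low tail, ranked 8 to 36 from the lowest.

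The 42 °C arrays were also set against the 37 °C arrays. In this step 4 of the 6 genes fell in Annapurna, where 6.39% of all genes were called lower: JAZ9 (-1.34), JAZ11 (-1.47), JAZ12 (-1.35) and JAZ13 (-2.41). In IR64, 5 fell, where 3.93% of all genes were called lower: JAZ9 (-1.26), JAZ10 (-2.08), JAZ11 (-1.49), JAZ12 (-2.79) and JAZ13 (-1.79). JAZ12 in IR64 was the 38th lowest of all genes in this step. JAZ10 differed by -0.60 ± 0.106 in Annapurna and was not called. JAZ8 differed by -0.44 in Annapurna and 0.38 in IR64, neither called. The fall of JAZ9 in this step was not called with a pseudocount of 64, at -0.92 in Annapurna and -0.68 in IR64.

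The cultivars were then compared at the same temperature. At 37 °C, 2 of the 6 genes were higher in Annapurna than in IR64, where 3.3% of all genes were called higher: JAZ11 by 1.27 ± 0.088 (limma adjusted p = 6.4e-08) and JAZ8 by 1.01 ± 0.0695 (limma adjusted p = 5.8e-08). JAZ9 was close to the threshold at 0.95 ± 0.131, and JAZ10, JAZ12 and JAZ13 differed by 0.73, 0.44 and -0.44 without being called. JAZ8 lost its call without Annapurna 37 °C replicate 3 (0.998), with a pseudocount of 64 (0.97) and with quantile normalization (0.94), and JAZ9 gained one without IR64 37 °C replicate 1 (1.003).

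At 42 °C, 3 genes were higher in Annapurna, where 2.51% of all genes were called higher, and 1 was lower, where 3.08% were. JAZ10 was higher by 2.21 ± 0.106 (4.62-fold, limma adjusted p = 1.1e-09), JAZ12 by 1.88 ± 0.107 (3.68-fold, limma adjusted p = 6.9e-09) and JAZ11 by 1.29 ± 0.088 (2.44-fold, limma adjusted p = 5.1e-08). JAZ13 was lower in Annapurna by 1.05 on the log2 scale (difference -1.05 ± 0.156, limma adjusted p = 1.4e-04), and this call was lost without Annapurna 42 °C replicate 1 (-0.98) or replicate 3 (-0.97) and without IR64 42 °C replicate 1 (-0.94), as well as with a pseudocount of 64 (-0.68) and with quantile normalization (-0.98). JAZ9 differed by 0.87 ± 0.131 and was not called, though with a pseudocount of 1 it was called at 1.27. JAZ8 differed by 0.19 ± 0.0695.

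The heat responses themselves were tested against each other, as the Annapurna difference from control minus the IR64 difference, so that a positive value means a smaller fall or a larger rise in Annapurna. At 37 °C this was called for 4 of the 6 genes, all positive, where 1.52% of all genes were called positive: JAZ11 at 1.56 ± 0.125, JAZ8 at 1.497 ± 0.0983, JAZ9 at 1.08 ± 0.185 and JAZ12 at 1.05 ± 0.152. JAZ10 stood at 0.88 ± 0.15 and JAZ13 at 0.08 ± 0.22 (95% interval -0.39 to 0.55). The calls of JAZ9 and JAZ12 rested on IR64 control replicate 3, without which they stood at 0.96 and 0.95, and JAZ9 was at 0.80 with a pseudocount of 64. JAZ10 was called at 1.005 without IR64 control replicate 1 and at 1.26 on its dimmer probe set.

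At 42 °C the difference of responses was called for 4 genes, again all positive, where 1.88% of all genes were called positive: JAZ12 at 2.48 ± 0.152, JAZ10 at 2.35 ± 0.15, JAZ11 at 1.58 ± 0.125 and JAZ9 at 1.00 ± 0.185. JAZ12 and JAZ10 were among the highest of the 17905 genes, at ranks 17893 and 17887 from the lowest. JAZ13 stood at -0.53 ± 0.22 and JAZ8 at 0.68 ± 0.0983, neither called. The call of JAZ9 lay on the threshold and was lost when any of 5 arrays was left out: at 0.97 without Annapurna control replicate 1, 0.88 without Annapurna 42 °C replicate 3, 0.91 and 0.96 without IR64 42 °C replicate 2 or 3, and 0.88 without IR64 control replicate 3; with a pseudocount of 64 it stood at 0.57. For the step between 37 °C and 42 °C, JAZ10 at 1.48 ± 0.15 and JAZ12 at 1.44 ± 0.152 were called, where 1.84% of all genes were called positive. The dimmer JAZ10 probe set stood at 1.99 ± 0.337 for the 42 °C response, called, and at 0.73 ± 0.337 for this step, not called.

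**Figure D4:**
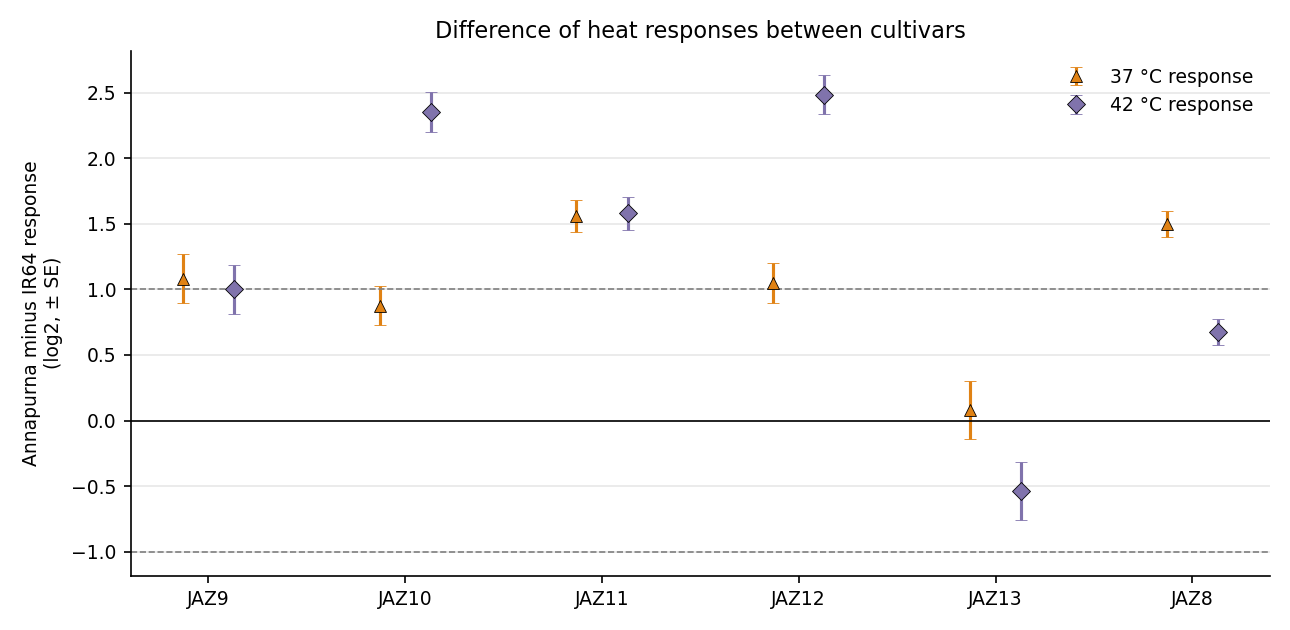
Annapurna response minus IR64 response of each JAZ gene (log2 scale, ± SE, n = 3 arrays per group), with triangles for 37 °C and diamonds for 42 °C; dashed lines mark 2-fold. JAZ10 and JAZ12 reach 2.35 and 2.48 at 42 °C, JAZ11 is at 1.56 and 1.58, and JAZ13 is at 0.08 and -0.53.

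Across the 18 arrays, JAZ9 to JAZ13 followed each other with Pearson's r of 0.69 (JAZ12 and JAZ13) to 0.97 (JAZ10 and JAZ11), while JAZ8 had r of -0.52 to -0.08 with them. These are descriptions over arrays that share 6 groups. Among 2021 other named genes of sufficient signal, those most like JAZ9 were FH16 (r = 0.982), a formin, CAD3 (0.979), of the lignin branch, and DREB1G (0.977), of the cold-response factors. JAZ10 was most like CHS (0.989), chalcone synthase of flavonoid synthesis, then CIGR1 (0.97), a GRAS protein, and Pi21 (0.969), known for blast susceptibility. JAZ11 was most like HSF23 (0.965), CHS (0.96) and CIGR1 (0.959), and so had CHS and CIGR1 in common with its neighbour JAZ10. JAZ12 was most like OsWRKY71 (0.966), OsC3H33 (0.949) and Os-RSZ21 (0.949). JAZ13 was most like CTU2 (0.973), CIPK3 (0.971), a calcium-signalling kinase, and CYCD5-2 (0.961), a cyclin. For JAZ8 the nearest genes were NCL1 (0.897), BSL1 (0.811) and OsSWEET2a (0.789). With each cultivar's mean taken out first, the nearest gene was again FH16, CHS, HSF23 and OsWRKY71 for JAZ9, JAZ10, JAZ11 and JAZ12, but CBF3 (0.989) for JAZ13 and ILL8 (0.896) for JAZ8.

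The other JAZ and TIFY genes were counted in the same way. Of 18 genes with such a name, 17 are on the array, and of the 11 that are not described above none was called against control at 37 °C in either cultivar or at 42 °C in Annapurna, by limma on their representative probe sets. Unadjusted limma p-values under 0.05 were found for 6 of them in Annapurna (2 negative, 4 positive) and 6 in IR64 (5 negative, 1 positive) at 37 °C. At 42 °C they were found for 7 in Annapurna (5 negative, 2 positive) and 10 in IR64 (9 negative, 1 positive). The median difference of the 11 genes in IR64 at 42 °C was -0.24. The share of all genes under that unadjusted p is not given here. In IR64 at 42 °C, 2 of the 11 fell, JAZ6 (TIFY10A) and JAZ5 (TIFY9). Between 3.4% and 6.45% of all genes were called in a given direction in these comparisons, and with 11 genes no difference from those shares is read from the counts. JAZ6 had 1005, 858 and 825 in IR64 at 42 °C, against 2460, 2582 and 2975 in IR64 control, and fell by 1.56 ± 0.0889. JAZ5 was dim, with 5.37 ± 0.271 in IR64 at 42 °C against 32.8 ± 9.84 in IR64 control (SD, n = 3 each), and fell by 1.17 ± 0.103. The difference of responses of JAZ6 was called as well, at 1.36 ± 0.126 for 37 °C and 1.45 ± 0.126 for 42 °C. JAZ4 was not called on its brighter probe set, and its dimmer one was called lower in Annapurna at both temperatures (it fell by 1.63 at 37 °C). JAZ2 and TIFY8 had group means under 9 in every group, too low to show a fall.

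**Figure D5:**
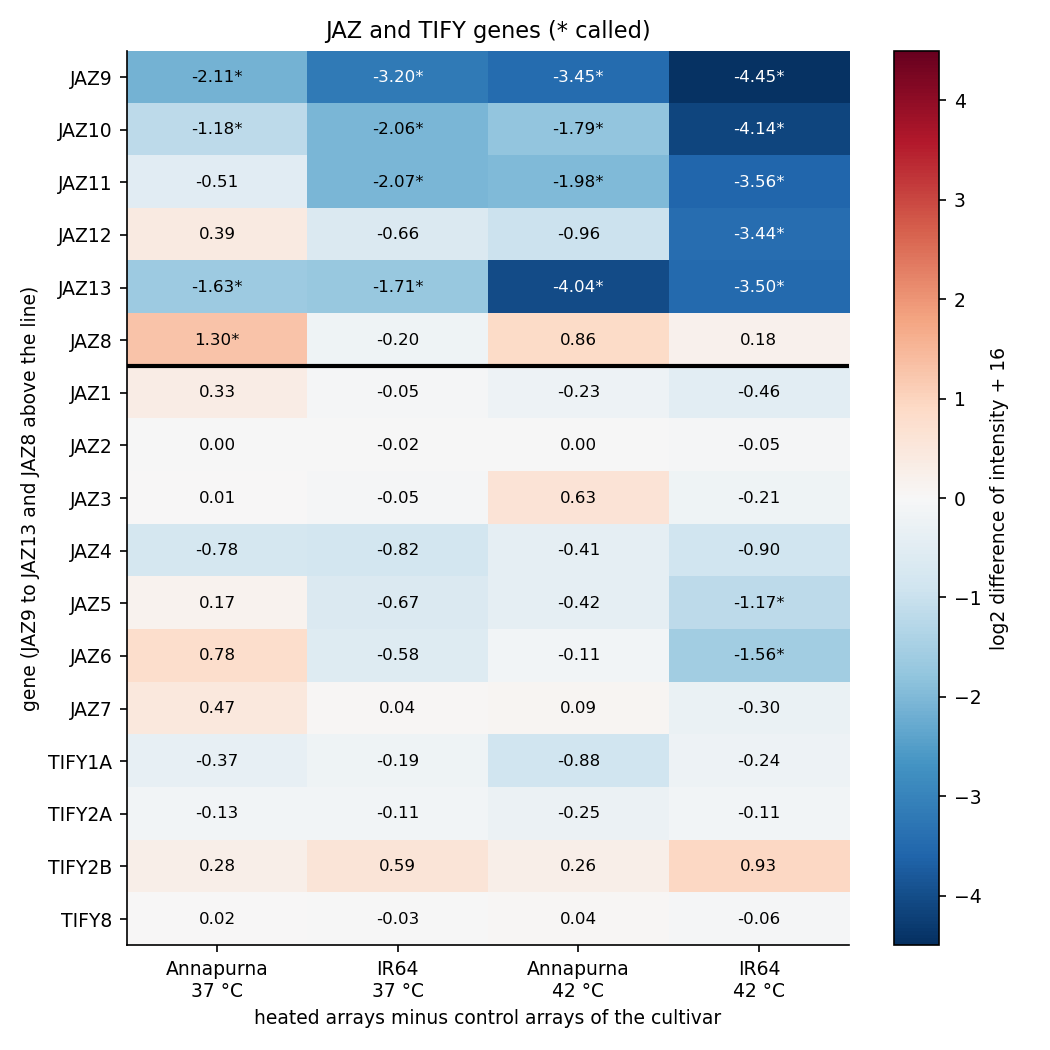
Log2 difference of intensity + 16 between heated and control arrays for the 17 JAZ and TIFY genes on the array, with blue for lower and red for higher in heat and an asterisk for a call; the 6 genes described here are above the line. Below the line only JAZ5 and JAZ6 in IR64 at 42 °C carry an asterisk.

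The partners of JAZ proteins in the pathway were taken from the jasmonate list. Its measured genes held 2 transcription factors, BHLH148 and JAMYB. The transcription factors MYC2 and RERJ1 and the jasmonate-responsive genes that were planned for the list were not among its measured genes. Of 3 receptor genes, COI1B was higher in IR64 at 42 °C, with 2204 ± 57.4 against 983 ± 45.0 in control (SD, n = 3 each) and a difference of 1.15 ± 0.0619. In Annapurna at 42 °C COI1B reached a like level, 2124 ± 185 against 1368 ± 108 in control, and its difference of 0.63 was not called. COI1A and COI2 were not called against control in any group, and neither were the adaptor NINJA1, the co-repressors TPR2 and TPR3, or JAR1, which conjugates jasmonate to isoleucine. Uncalled here does not mean unchanged. TPR2 at 37 °C had 3239 ± 207 against 1762 ± 71.6 in control in Annapurna. In IR64 it had 2653 ± 120 against 1389 ± 70.5. NINJA1 at 37 °C had 555 ± 18.8 against 868 ± 106 in Annapurna and 490 ± 20.0 against 734 ± 5.45 in IR64. JAR1 had 394 ± 45.5 against 202 ± 24.4 in IR64 at 42 °C (SD, n = 3 each). BHLH148, a transcription factor that binds JAZ proteins in rice, fell in all heated groups. At 42 °C it had 130 ± 11.1 against 982 ± 186 in control in Annapurna (-2.76 ± 0.14) and 64.7 ± 14.6 against 838 ± 98.0 in control in IR64 (-3.41 ± 0.14). JAMYB, a MYB factor known as jasmonate-inducible, rose in Annapurna at 37 °C by 2.01 ± 0.141, with 709 ± 136 against 162 ± 12.3.

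The list places 17 measured genes under jasmonate synthesis by their names, and the part of each in synthesis was not tested. At 37 °C, 3 of them fell and 2 rose in Annapurna, and 5 fell and 1 rose in IR64. At 42 °C, 4 fell and 0 rose in each cultivar. There, 4 in Annapurna and 2 in IR64 had a positive difference with an unadjusted limma p under 0.05. OPR6 and OPR12 had group means of at most 8.66 and 6.57, too low to show a fall. OPR10 and OPR5, of the oxophytodienoate reductase family, fell at 37 °C, with differences of -2.61 and -1.80 in Annapurna and -2.83 and -2.19 in IR64. AOS3, an allene oxide synthase, rose by 1.78 in Annapurna and 2.17 in IR64 at 37 °C. At 42 °C AOS2 fell by 2.31 in Annapurna and CM-LOX2, a lipoxygenase, by 2.06 in IR64. Neither was particular to 1 cultivar in direction. CM-LOX2 differed by -1.39 in Annapurna at 42 °C, with a mean of 72.0 against 217 in control. AOS2 was dim in IR64 already in control, with a mean of 28.1 against 11.2 at 42 °C. Over all 26 measured genes of the jasmonate list outside the JAZ and TIFY family, 4 fell and 3 rose in Annapurna at 37 °C, 6 fell and 1 rose in IR64 at 37 °C, 5 fell and 0 rose in Annapurna at 42 °C, and 5 fell and 1 rose in IR64 at 42 °C. Over all genes, 4.75% were called lower and 5.56% higher in Annapurna at 37 °C, 4.07% and 5.15% in IR64 at 37 °C, 5.5% and 3.4% in Annapurna at 42 °C, and 5.1% and 6.45% in IR64 at 42 °C. The median differences of the 26 genes were -0.07 and -0.32 at 37 °C and -0.18 and -0.05 at 42 °C in Annapurna and IR64.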

How the data were processed

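RNA of 18 whole-seedling samples was labelled from the 3′ end and hybridised to Affymetrix rice arrays, per the labels' protocols. The authors deposited 1 linear intensity per probe set and array. GCOS is the only tool that the submitters' processing notes name; how its values were summarized and scaled was not given in the sources used. No detection calls or array batches were used. Precision is limited by the number of arrays.

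The deposited scaling was kept. Of 57381 probe sets, 123 controls were left out. Log2(intensity + 16) was fitted with limma 3.58.1 in R 4.3.3 (6 group means, 12 residual degrees of freedom, eBayes with a trend). P-values were two-sided and Benjamini-Hochberg adjusted over 57258 probe sets in each of 12 comparisons. A call needed an adjusted p under 0.05 and a log2 difference of at least 1. The fit was tested on simulated data. A gene was represented by its probe set with the highest mean. Probe sets were named through the array annotation, and 22436 matched 1 gene, 95 several and 34727 none. Other names and gene order came from RefSeq's table of assembly ASM3414082v1, whose coordinates are not used. Python 3.11.15 with pandas 2.3.3, numpy 2.4.6 and matplotlib 3.10.9 made tables and figures.

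JAZ numbers differ between naming systems. The plain names were used in place of the planned rule, which also accepted the prefix Os. That rule gives 9 genes and was an alternative. It adds JAZ1, JAZ3 and JAZ5. Of these only JAZ5 was called against control, lower in IR64 in the hotter treatment. The share called against control is therefore smaller among the 9 genes than among those chosen by plain name. Genes, lists and rules were chosen with earlier results of these data known. Outside the JAZ genes, the text names COI1A, COI1B, COI2, NINJA1, TPR2, TPR3, JAR1 and BHLH148 whatever their result. MYC2 and RERJ1 were planned in the same way but were not among the measured genes of the list. Otherwise the text names up to 2 called genes of the jasmonate list each way per heat step, with called JAZ and TIFY relatives. Likeness was Pearson's r over 18 arrays among named genes with a group mean of at least 100, 3 per JAZ gene. JAZ4, JAZ2, TIFY8, OPR6 and OPR12 were named after their values were seen. Alternatives were pseudocounts of 1 and 64, quantile normalization, a signal filter, a replicate block, fits of the compared groups only, no variance trend, the mean of probe sets, no fold threshold, and leaving out arrays.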

Additional observations from a re-analysis of the deposited data

Results flagged for a closer look

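The test of the Annapurna minus the IR64 heat response was called for these results (limma, Benjamini-Hochberg adjusted p over all probe sets). For the 37 °C response the values were 1.08 for JAZ9 (adjusted p = 1.5e-03), 1.56 for JAZ11 (1.9e-06), 1.05 for JAZ12 (3.9e-04), 1.497 for JAZ8 (2.9e-07) and 1.36 for JAZ6 (7.1e-06). For the 42 °C response they were 1.00 for JAZ9 (5.1e-04), 2.35 for JAZ10 (1.0e-07), 1.58 for JAZ11 (7.4e-07), 2.48 for JAZ12 (6.5e-08) and 1.45 for JAZ6 (1.8e-06). For the step between 37 °C and 42 °C they were 1.48 for JAZ10 (8.2e-06) and 1.44 for JAZ12 (1.2e-05). All are positive: the difference was less negative or more positive in Annapurna than in IR64. JAZ13, at 0.08 and -0.53, is the TIFY11 gene that was called at neither temperature.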

How the results depend on the processing

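The counts of JAZ genes called in heat against control, at 42 °C against 37 °C, between cultivars at 42 °C and for the difference of 42 °C responses stayed within 1.5 times of those reported under every alternative run. These counts were 4 or 5 of 6 genes, so calls gained among the 6 could not pass that bound. Only lost calls could, and the genes that the Os prefix adds could not lower a count. The bound on counts therefore does not show that the share called against control is smaller with those genes added. With no fold threshold the count called was 6 between cultivars at 37 °C, 4 between cultivars in control and 4 for the difference of the steps between 37 °C and 42 °C. The count between cultivars at 37 °C was 1 with a pseudocount of 64, with quantile normalization and without the JAZ8 gene. The count for the difference of 37 °C responses was 2 without control replicate 3 of both cultivars and 2 without the control arrays of low 18S and bright AMY1.1, and that for the difference of steps was 1 with the dimmer JAZ10 probe set, with or without the low-18S array. Leaving out 1 array in turn gave 2 to 5 for the difference of 37 °C responses and 1 to 3 between cultivars at 37 °C, while the ranges were 4 to 5 for Annapurna at 42 °C against control, 3 to 4 for the difference of 42 °C responses and 3 to 4 between cultivars at 42 °C. The cause was not tested.

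Values that changed sign were all near 0 and uncalled. JAZ13's difference of 37 °C responses was -0.020 without control replicate 3 of both cultivars, -0.134 without the control arrays of low 18S and bright AMY1.1, -0.020 without the low-18S array in the fit for the dimmer JAZ10 probe set, and -0.034 (without IR64 control replicate 3) to 0.198 with 1 array left out. JAZ11's difference of steps was -0.074 with a pseudocount of 64 and -0.024 to 0.093 with 1 array left out, and JAZ9's was 0.186 with a pseudocount of 1, 0.009 with quantile normalization, and -0.201 to 0.050 with 1 array left out. Between cultivars in control, JAZ10 was 0.036 without control replicate 3 of both cultivars and JAZ9 0.011 without the control arrays of low 18S and bright AMY1.1.

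Over all genes, dropping the fold threshold called 5.38 to 10.32 times as many genes. A pseudocount of 64 called 301 against 505 genes for the difference of 37 °C responses, 625 against 992 for that of 42 °C responses, 663 against 1002 between cultivars at 42 °C and 705 against 1104 in control. Replicate numbers did not pair the arrays (correlations of same-numbered deviations -0.195 to 0.171), and a replicate block left every count of JAZ genes as reported, with 5 called in IR64 at 42 °C, 4 in each other comparison with control, 4 for each difference of responses, 2 for that of the steps, and 0, 2 and 4 between cultivars in control, at 37 °C and at 42 °C. The block gave 4 and 5 for 42 °C against 37 °C in Annapurna and IR64. The fit has 3 arrays a group, and the differences of signals as low as that of JAZ9 in IR64 at 42 °C depend on the pseudocount. The dimmer JAZ10 probe set, the name sets, and leaving out the low-18S and bright-AMY1.1 arrays together were chosen after seeing the data.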
